A study of Homo sapiens with 3 samples.

Results

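The UGT2B enzymes and UGDH were followed in LNCaP cells, a long-established line from a human prostate cancer that responds to androgen. The members were fixed by name, as the rows of the count table whose Ensembl identifiers carry the GENCODE names UGT2B7, UGT2B10, UGT2B11, UGT2B15, UGT2B17, UGT2B28 and UGDH. All 7 were found among 58884 gene rows. The cells had been precultured for 24 h and then kept for 72 h with 2% fetal bovine serum and 50% conditioned medium (CM). The 3 media were PPAT-CM (marked tumor), PVAT-CM (marked normal) and control-CM. The series title spells out PPAT as periprostatic adipose tissue and does not spell out PVAT. All 3 groups are the same line, without genetic change, and each is 1 library. No spread between cultures could therefore be measured, and every interval below is a 95% counting interval.

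UDP-glucuronosyltransferases join glucuronic acid to small lipophilic molecules, which makes them soluble and, for steroids, inactive. In the prostate, UGT2B15 and UGT2B17 are the main enzymes that glucuronidate dihydrotestosterone and its reduced metabolites, and so inactivate androgen within the cell. UGDH oxidises UDP-glucose to UDP-glucuronate, the sugar donor that every one of these enzymes consumes. In LNCaP cells androgens are known to lower UGT2B15 and UGT2B17 transcripts and to raise UGDH.

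The library totals lay between 14174241 and 16965584 counts. Transcripts of the mitochondrial chromosome took 15.5% of counts in PPAT-CM, 21.1% in PVAT-CM and 30.8% in control-CM, and levels are therefore given as CPM after TMM scaling (scaled CPM). The floor of 3 counts that an undetected gene may hold was 0.163 scaled CPM in PPAT-CM, 0.210 in PVAT-CM and 0.198 in control-CM. All 10 prostate luminal markers were well measured, with sums of 58738, 59497 and 62575 counts in PPAT-CM, PVAT-CM and control-CM, and KLK3, KLK2 and TMPRSS2 were at least 2-fold lower in PPAT-CM than in control-CM. The basal markers KRT5 and TP63 were at 0 and KRT14 had 2 counts in PPAT-CM, 20 in PVAT-CM and 38 in control-CM. The 7 fibroblast and endothelial markers summed to 569, 387 and 819 counts, mostly COL1A1, with DCN at 0. The 7 leukocyte markers summed to 10, 17 and 11 counts in PPAT-CM, PVAT-CM and control-CM, with PTPRC, CD3E and TYROBP at 0. The 7 adipocyte markers summed to 91, 27 and 13 counts in the same order. PLIN1 gave 89, 27 and 13 of these, while ADIPOQ, LEP, FABP4 and LPL were at 0 in all libraries. The 7 hepatocyte markers, of the tissue in which most UGT2B enzymes are abundant, summed to 114 counts in PPAT-CM, 91 in PVAT-CM and 108 in control-CM, with APOB and HP at 0. Within this sum SERPINA1 had 59 counts in PPAT-CM, 3 in PVAT-CM and 4 in control-CM, whereas APOA1 had 19, 34 and 50 and TTR 31, 51 and 52 in the same order. What part they have in the differences of the members was not tested.

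The 6 UGT2B genes lie in 1 cluster on chromosome 4, from 68537184 to 69295050 (GRCh38, GENCODE release 29), a stretch of 758 kb. UGT2B15, UGT2B17 and UGT2B11 are on the minus strand and UGT2B10, UGT2B7 and UGT2B28 on the plus strand. UGT2B17 spans 68537184 to 68568527, UGT2B15 68646630 to 68670628, UGT2B10 68815993 to 68831196, UGT2B7 69051363 to 69112987, UGT2B11 69199951 to 69214731 and UGT2B28 69280499 to 69295050. UGDH lies apart on the same chromosome, from 39498755 to 39528311 on the minus strand. The coding sequences of UGT2B15 and UGT2B17, each of 1593 bases in 6 exons, were identical at 96.6% of aligned bases and differed at 55. UGT2B11 and UGT2B28 were identical at 97.0%, UGT2B11 and UGT2B10 at 95.3%, and UGT2B17 and UGT2B28 at only 84.6%. The family therefore forms a UGT2B15 and UGT2B17 pair and a separate branch of the other 4.

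These coding bases show how near the pair is, and where a read can tell its members apart. The stretch runs from base 242 to base 301 of each coding sequence and, of all ungapped stretches of 60 bases, holds the most differences, 9, which are in capitals.
UGT2B15: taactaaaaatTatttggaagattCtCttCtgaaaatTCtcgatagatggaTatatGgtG
UGT2B17: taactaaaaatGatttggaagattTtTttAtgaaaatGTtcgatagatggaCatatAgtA
Of all stretches of 50 bases in the UGT2B17 transcript, 27.5% also occur unchanged in UGT2B15, and of stretches of 100 bases 12.7%. For UGT2B11 the share found in any other UGT2B member was 24.8% at 50 bases and 3.37% at 100 bases. Neither the read length nor the treatment of such reads was given in the sources used here. Counts of single copies are therefore uncertain, and the sum of UGT2B15 and UGT2B17 is given beside them.

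The promoters are shown because UGT2B15 and UGT2B11 were both lower in PPAT-CM and UGDH was higher. The sequences are those of RefSeq (GRCh38.p14), 250 bases before to 50 after each start, given along the gene's own strand. Of the 7 members 5 had such a sequence, and UGT2B17 and UGT2B28 did not. Capitals mark exact matches, on either strand, to the forkhead site TGTTTAC, the CDX site TTTATG or the antioxidant response core TGACNNNGC. The HNF1 hexamer GTTAAT was also searched and had no match in the 5 promoters.
UGT2B15, chr4:68670603-68670902, minus strand: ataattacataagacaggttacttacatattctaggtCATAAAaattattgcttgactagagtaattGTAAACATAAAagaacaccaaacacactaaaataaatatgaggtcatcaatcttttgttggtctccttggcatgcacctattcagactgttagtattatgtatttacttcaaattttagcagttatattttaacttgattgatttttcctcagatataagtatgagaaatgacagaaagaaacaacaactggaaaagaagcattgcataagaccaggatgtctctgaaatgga
UGT2B11, chr4:69214699-69214998, minus strand: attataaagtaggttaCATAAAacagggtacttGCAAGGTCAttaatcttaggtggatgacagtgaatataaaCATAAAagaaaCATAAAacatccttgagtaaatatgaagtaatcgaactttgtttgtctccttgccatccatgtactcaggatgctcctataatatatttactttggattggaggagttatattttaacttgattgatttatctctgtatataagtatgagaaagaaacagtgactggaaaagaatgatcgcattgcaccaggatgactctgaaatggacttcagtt
UGDH, chr4:39527390-39527689, minus strand: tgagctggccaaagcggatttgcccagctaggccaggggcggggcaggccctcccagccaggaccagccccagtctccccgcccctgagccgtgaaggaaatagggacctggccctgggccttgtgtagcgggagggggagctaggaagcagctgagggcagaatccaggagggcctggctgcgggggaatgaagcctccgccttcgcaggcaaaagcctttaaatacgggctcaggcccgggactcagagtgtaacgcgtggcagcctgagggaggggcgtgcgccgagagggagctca
In UGT2B15 a forkhead match at -183 to -177 overlapped a CDX match at -178 to -173. Of 35116 promoters of this length 3.42% held the forkhead site, 10.6% the CDX site, 13.3% the antioxidant response core and 6.88% the HNF1 hexamer. The CDX site was in all 4 UGT2B promoters of the table, and the antioxidant response core in UGT2B10 and UGT2B11. These promoters matched one another at 72.0% to 92.6% of aligned bases, so their matches are not independent of each other. The gene of the factor CDX2 had 0 counts in every library. Of the 5 promoters UGT2B15 alone held the forkhead site, and UGDH held none of the motifs. GC content was 30.3% in UGT2B15, 33% in UGT2B11 and 66.7% in UGDH, and the UGT2B15 and UGT2B11 promoters matched at 80.1% of aligned bases. A match here is a match of letters and not evidence of binding.

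UGT2B17 was by far the most abundant member, and UGT2B15 the next. UGT2B17 (ENSG00000197888) had 2627 counts in PPAT-CM, 4531 in PVAT-CM and 3560 in control-CM, or 143, 318 and 235 scaled CPM. UGT2B15 (ENSG00000196620) had 482 counts in PPAT-CM, 689 in PVAT-CM and 657 in control-CM, or 26.2, 48.3 and 43.3 scaled CPM. Both were lowest in PPAT-CM and highest in PVAT-CM. For UGT2B17 the intervals of the 3 libraries did not overlap, and for UGT2B15 those of PVAT-CM and control-CM did. In bulk RNA fewer expressing cells and less RNA per cell cannot be told apart.

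The remaining UGT2B enzymes were near the limit of detection. UGT2B11, a close relative with little known activity on steroids (ENSG00000213759), had 9 counts in PPAT-CM, 33 in PVAT-CM and 36 in control-CM. UGT2B28, which glucuronidates androgens weakly (ENSG00000135226), had 2 counts in PPAT-CM, 3 in PVAT-CM and 8 in control-CM, and UGT2B10, best known for amine drugs such as nicotine (ENSG00000109181), had 6 in PPAT-CM, 4 in PVAT-CM and 9 in control-CM. UGT2B7, the main opioid and bile acid enzyme of the liver (ENSG00000171234), had 0 counts in PPAT-CM, 4 in PVAT-CM and 1 in control-CM. Of these only UGT2B11 differed between media beyond counting error, and it was low in PPAT-CM alone. The antisense gene AC111000.4, which spans UGT2B11, had 4 counts in PVAT-CM and 0 in PPAT-CM and control-CM.

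UGDH (ENSG00000109814) had 861 counts in PPAT-CM, 463 in PVAT-CM and 408 in control-CM, or 46.8, 32.5 and 26.9 scaled CPM. UGDH was thus highest in PPAT-CM, where UGT2B17 and UGT2B15 were lowest. The antisense gene UGDH-AS1, which overlaps 293 bases of UGDH, had 81 counts in PPAT-CM, 58 in PVAT-CM and 41 in control-CM. The strand setting of the counting is not stated, so reads of this overlap cannot be assigned to either gene.

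**Figure D1:**
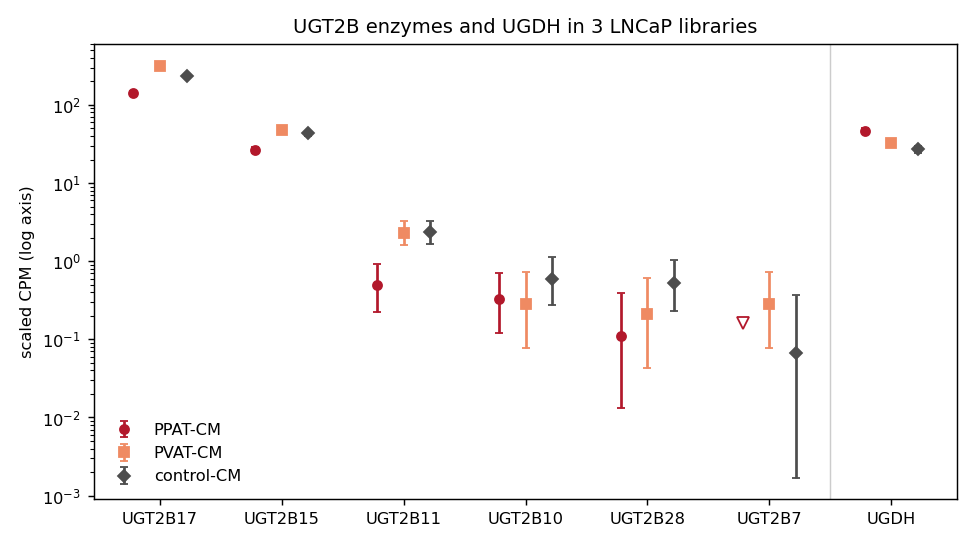
Scaled CPM (log axis) of the 7 members in the libraries of PPAT-CM, PVAT-CM and control-CM, with exact 95% Poisson intervals; the open triangle marks the floor of 3 counts for UGT2B7, which had a count of 0 in PPAT-CM. UGT2B17 and UGT2B15 sit lowest in PPAT-CM, and UGDH sits highest there, at 46.8.

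Per kilobase of exon the order was UGT2B17, UGT2B15, UGDH and then the rest. UGT2B17 had 68.8 scaled CPM per kilobase in PPAT-CM, 153 in PVAT-CM and 113 in control-CM. UGT2B15 had 12.6, 23.3 and 20.9 and UGDH 11.6, 8.03 and 6.65 in the same order. In PPAT-CM the intervals of UGT2B15 (11.5 to 13.8) and UGDH (10.8 to 12.4) overlapped, so that these neighbours in the order did not differ there beyond counting error. UGT2B11 followed at 0.209 in PPAT-CM, 0.989 in PVAT-CM and 1.01 in control-CM, and its interval overlapped that of UGT2B10 in PPAT-CM but not in PVAT-CM or control-CM.

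In PPAT-CM against control-CM both abundant UGT2B transcripts were lower and UGDH was higher. UGT2B17 was 1.64-fold lower (1.56 to 1.73) and UGT2B15 1.65-fold lower (1.47 to 1.86), and their sum was 1.64-fold lower (1.57 to 1.72). UGT2B11 was 4.85-fold lower (2.29 to 11.4), on 9 counts in PPAT-CM and 36 in control-CM. UGDH was 1.74-fold higher (1.54 to 1.96). Of the 7 members 3 (UGT2B15, UGT2B17 and UGDH) passed the count filter, a mean of at least 50, and the lowest count of these was 408. UGT2B11, with a mean of 26, and the 3 rarer members did not pass it. None of the 3 kept members reached 2-fold, a size reached upward by 3.93% and downward by 2.74% of the 12256 genes kept. At 1.5-fold 1 was higher and 2 were lower, beside 12.0% of genes higher and 8.71% lower. The median log2 ratio of all kept genes was 0.03. With total counts in place of TMM UGDH passed 2-fold, at a log2 ratio of 1.04, and the log2 ratio of the UGT2B sum was -0.49 in place of -0.73. TMM factors computed without mitochondrial genes gave -0.74 for that sum.

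In PVAT-CM against control-CM, which share the control library with the comparison above, the differences were smaller. UGT2B17 was 1.35-fold higher (1.30 to 1.42), UGT2B15 1.12-fold (1.00 to 1.24) and UGDH 1.21-fold higher (1.05 to 1.38). The interval of UGT2B11 included 1 (0.589 to 1.61). No kept member was past 2-fold, beside 0.465% of genes higher and 0.441% lower, and none was past 1.5-fold, beside 3.15% higher and 3.49% lower. UGDH and UGT2B17 were thus on the same side of control-CM here, and on opposite sides of it in PPAT-CM. The interval of UGT2B15 began at 1.00 here, so its side of control-CM was not clear.

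UGT2B17, UGT2B15 and the UGT2B sum differed more in PPAT-CM against PVAT-CM than in the other comparisons, and UGT2B11 did not. UGT2B17 was 2.22-fold lower (2.12 to 2.33), the 1 member of 3 past 2-fold, beside 1.47% of genes that were lower by as much and 2.45% that were higher. UGT2B15 was 1.84-fold lower (1.64 to 2.08) and UGT2B11 4.73-fold lower (2.21 to 11.2), on 9 counts in PPAT-CM and 33 in PVAT-CM. UGDH was 1.44-fold higher (1.29 to 1.62). At 1.5-fold 2 kept members were lower and none was higher, beside 6.07% and 8.56% of genes. The 6 UGT2B members together had 3126 counts in PPAT-CM and 5264 in PVAT-CM, with 4271 in control-CM, and in PPAT-CM this sum was 2.17-fold below that in PVAT-CM (2.08 to 2.27).

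**Figure D2:**
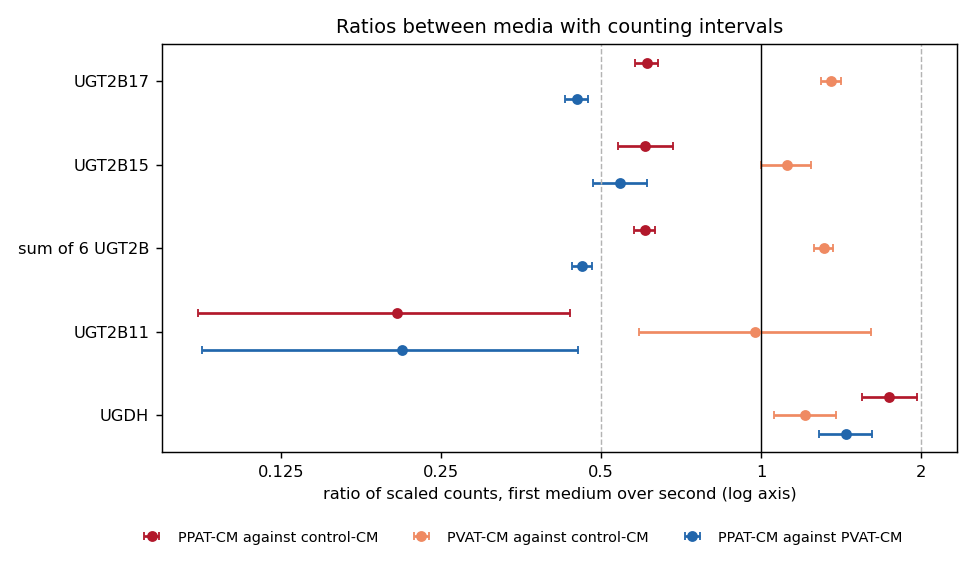
Ratios of scaled counts (log axis) of 4 members and of the sum of the 6 UGT2B genes in the 3 comparisons, with 95% counting intervals; dashed lines mark 2-fold. UGT2B points lie left of 1 wherever PPAT-CM is the first medium, and UGDH lies right of 1 in all 3 comparisons.

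UGT2B17 and UGT2B15 held nearly all UGT2B counts in every medium. UGT2B17 made up 84.0% of UGT2B counts in PPAT-CM (82.7 to 85.3, exact binomial interval), 86.1% in PVAT-CM (85.1 to 87.0) and 83.4% in control-CM (82.2 to 84.5). UGT2B15 made up 15.4% in PPAT-CM, 13.1% in PVAT-CM and 15.4% in control-CM, so that the other 4 together held little more than 1% at most. The ratio of UGT2B17 to UGT2B15 counts was 5.45 in PPAT-CM, 6.58 in PVAT-CM and 5.42 in control-CM. It was the same within counting error in PPAT-CM and control-CM, with a quotient of 1.01 (0.883 to 1.15), and 1.21-fold higher in PVAT-CM than in control-CM (1.08 to 1.37). UGT2B11 was 0.288% of UGT2B counts in PPAT-CM (0.132 to 0.546), 0.627% in PVAT-CM (0.432 to 0.879) and 0.843% in control-CM (0.591 to 1.16). Its ratio to UGT2B17 was 2.95-fold lower in PPAT-CM than in control-CM (1.39 to 6.98).

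The ratio of the sugar donor enzyme to the transferases needs no scaling between libraries. UGDH counts were 0.328 of UGT2B17 counts in PPAT-CM, 0.102 in PVAT-CM and 0.115 in control-CM. This ratio was 2.86-fold higher in PPAT-CM than in control-CM (2.51 to 3.26) and 3.21-fold higher than in PVAT-CM (2.83 to 3.63), while the interval of PVAT-CM against control-CM included 1 (0.773 to 1.03). Taken to UGT2B15, UGDH was 2.88-fold higher in PPAT-CM than in control-CM (2.43 to 3.41). In PPAT-CM UGDH counts exceeded those of UGT2B15, at a ratio of 1.79, against 0.672 in PVAT-CM and 0.621 in control-CM. The UGDH exons are longer, and per kilobase this ratio was 0.917 in PPAT-CM, 0.345 in PVAT-CM and 0.319 in control-CM. Per length UGDH thus did not exceed UGT2B15 in any medium.

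KLK3, which encodes prostate-specific antigen and is raised by androgen, gives a scale for these differences. It had 4577 counts in PPAT-CM, 9982 in PVAT-CM and 10286 in control-CM and was 2.72-fold lower in PPAT-CM than in control-CM (2.63 to 2.82). The ratio of UGT2B17 to KLK3 counts was 0.574 in PPAT-CM, 0.454 in PVAT-CM and 0.346 in control-CM. In PPAT-CM against control-CM UGT2B17 thus differed less than KLK3, and its ratio to KLK3 was 1.66-fold higher in PPAT-CM than in control-CM (1.56 to 1.76). In PVAT-CM against control-CM KLK3 was at 1.03-fold, and the ratio of UGT2B17 to it was 1.31-fold higher in PVAT-CM (1.25 to 1.38).

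**Figure D3:**
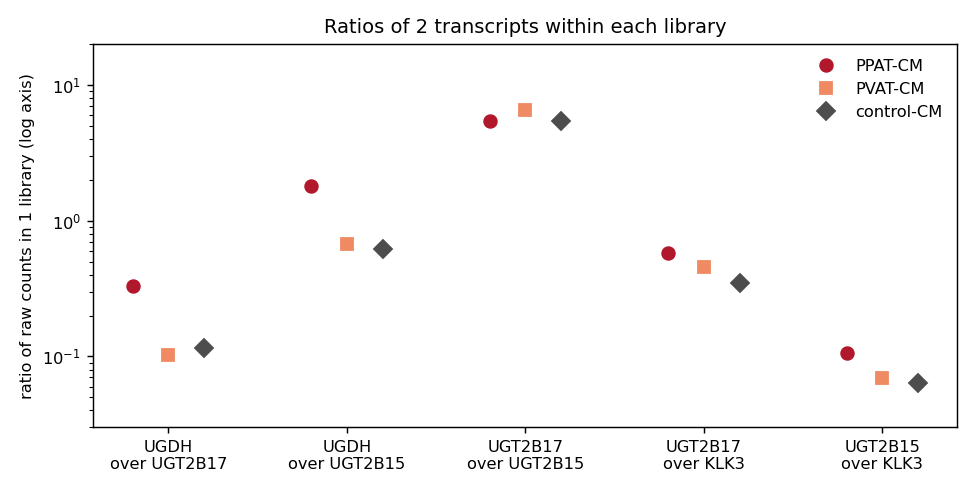
Ratios of raw counts of 2 transcripts within each library (log axis), which no library scaling enters. The ratio of UGDH to UGT2B17 is 0.328 in PPAT-CM and near 0.1 in PVAT-CM and control-CM, while the ratio of UGT2B17 to UGT2B15 lies between 5.42 and 6.58.

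The genes around the cluster were mostly silent. Within 500 kb on either side of it the table has 66 rows, of which 21 had a count in any library and 4 passed the filter. Besides UGT2B15 and UGT2B17 these were YTHDC1, a reader of methylated RNA, and UBA6-AS1. YTHDC1 had 1411 counts in PPAT-CM, 1272 in PVAT-CM and 1264 in control-CM, a ratio of 0.921 in PPAT-CM against control-CM (0.853 to 0.994). UBA6-AS1 had 260 counts in PPAT-CM, 158 in PVAT-CM and 168 in control-CM. Both neighbours differed less between PPAT-CM and control-CM than UGT2B17 and UGT2B15 did, or lay on the other side.

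The rest of the locus was at or near 0. UGT2B4 had 2, 8 and 4 counts in PPAT-CM, PVAT-CM and control-CM, UGT2A3 had 2, 0 and 0, and the protease gene TMPRSS11E had 7, 6 and 12. The 5 UGT2B pseudogenes named in the annotation summed to 1, 0 and 5 counts, of which UGT2B27P gave 0, 0 and 4 and UGT2B29P 1, 0 and 1. TMPRSS11F had a single count, in control-CM, and none of the further pseudogene and antisense rows with a count (AC147055.3, AC147055.1, AC021146.4, AC021146.6, AC107401.1, AC111000.4 and AC114786.1) had over 5 in a library. With the pseudogene rows added, the UGT2B sum was 1.66-fold lower in PPAT-CM than in control-CM, as without them.

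**Figure D4:**
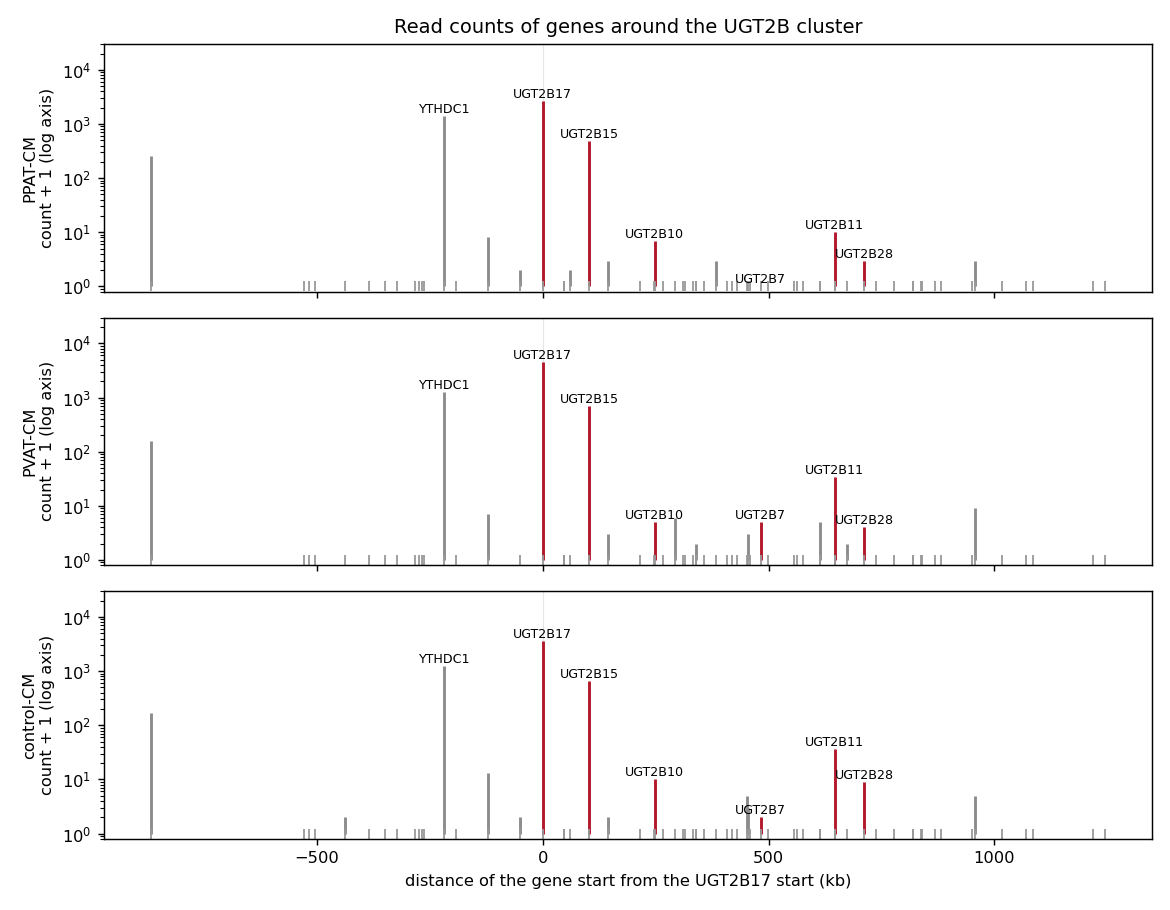
Counts plus 1 (log axis) of all annotated genes around the UGT2B cluster in PPAT-CM, PVAT-CM and control-CM, by the distance of each gene's start from that of UGT2B17 in kb; members are in red and ticks mark every gene. UGT2B17, UGT2B15 and YTHDC1 stand out in each library, and most other genes are at 0.

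The patterns nearest to those of the members were sought among the other 12255 kept genes, by the distance between the pairs of log2 ratios to control-CM, over 3 libraries. Nearest to UGT2B17 were GREB1, a hormone-responsive gene, with 144 counts in PPAT-CM, 249 in PVAT-CM and 192 in control-CM at a distance of 0.04, then AC109347.1 and APBA1 at 0.07 each. Nearest to UGT2B15 were SLITRK3, with 670, 926 and 902 counts at a distance of 0.04, and AC090517.2 and BX649601.1 at 0.05 and 0.06. Nearest to UGDH were PCDH11Y, at 0.001, CDKN2A and UBXN2B, at 0.01 each. With 3 libraries many genes lie close by, and 1848 kept genes, or 15.1%, were like UGT2B17 lower in PPAT-CM and higher in PVAT-CM than in control-CM.

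Several genes that make the precursor of UDP-glucuronate were, like UGDH, higher in PPAT-CM. Of 6 supply genes 5 were kept, and 2 of them were at least 1.5-fold higher in PPAT-CM than in control-CM and none was lower, with a median log2 ratio of 0.54. Over all kept genes 12.0% were higher by as much and 8.71% lower, and the median was 0.03. PGM2, a phosphoglucomutase, had 1405 counts in PPAT-CM, 715 in PVAT-CM and 637 in control-CM and was 1.82-fold higher in PPAT-CM than in control-CM (1.66 to 2.00). UGP2, which makes UDP-glucose, had 711 counts in PPAT-CM, 476 in PVAT-CM and 386 in control-CM and stood 1.52-fold higher (1.34 to 1.72). SLC35D1, a carrier of UDP-glucuronate into the endoplasmic reticulum, was at the floor with 0, 2 and 1 counts. In PVAT-CM against control-CM the median of this list was 0.18, beside 0.02 for all genes. No gene of it was past 1.5-fold there, beside 3.15% of all kept genes higher and 3.49% lower.

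Genes that spend UDP-glucuronate elsewhere differed from gene to gene. Of 13 genes for xylose, hyaluronan and proteoglycan synthesis 8 were kept, with a median log2 ratio of 0.07 in PPAT-CM against control-CM and 0.27 in PVAT-CM against control-CM. The medians of all kept genes in these comparisons were 0.03 and 0.02. CHPF, a chondroitin polymerising factor, had 1830 counts in PPAT-CM, 1344 in PVAT-CM and 963 in control-CM and was the 1 gene at least 1.5-fold higher in PPAT-CM (1.57-fold, 1.45 to 1.70). Over all kept genes 12.0% were higher by as much, a share close to that of 1 gene in 8. HAS3, a hyaluronan synthase, had 70 counts in PPAT-CM, 42 in PVAT-CM and 74 in control-CM. GUSB, the lysosomal enzyme that removes glucuronic acid again, had 948 counts in PPAT-CM, 839 in PVAT-CM and 803 in control-CM, and its interval in PPAT-CM against control-CM included 1 (0.886 to 1.07). None of the 16 other glucuronosyltransferase genes was kept, and 13 of them had no count in any library. The UGT1A genes overlap and share exons, which counting per gene can leave unassigned, so their 0 counts are uncertain.

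Androgen-converting enzymes did not lie on 1 side. Of 15 genes that make active androgens 4 were kept, and 2 of these were at least 1.5-fold higher in PPAT-CM than in control-CM, with a median log2 ratio of 0.49. STS, which frees steroids from sulfate, had 180 counts in PPAT-CM, 103 in PVAT-CM and 81 in control-CM and was 1.83-fold higher in PPAT-CM than in control-CM (1.40 to 2.41). SRD5A1, a reductase that makes dihydrotestosterone, had 898 counts in PPAT-CM, 428 in PVAT-CM and 468 in control-CM and stood 1.58-fold higher (1.41 to 1.77). Of 14 genes of androgen breakdown outside the UGT2B family 3 were kept, and at 1.5-fold 1 was higher and 2 were lower in PPAT-CM than in control-CM, with a median log2 ratio of -0.98. At 2-fold 1 was higher and 1 lower, beside 3.93% of all kept genes higher and 2.74% lower. HSD17B4, a peroxisomal enzyme that also oxidises fatty acids, had 13708 counts in PPAT-CM, 4246 in PVAT-CM and 4344 in control-CM and stood 2.60-fold higher (2.52 to 2.69). CYP3A5, a steroid hydroxylase whose reads can be shared with its close relatives, had 153 counts in PPAT-CM, 150 in PVAT-CM and 346 in control-CM and stood 2.74-fold lower in PPAT-CM (2.26 to 3.34) and 2.17-fold lower in PVAT-CM than in control-CM (1.79 to 2.64). SULT2B1, a sulfotransferase of steroids chosen after its values were seen, had 205 counts in PPAT-CM, 226 in PVAT-CM and 334 in control-CM, with 1.98-fold lower scaled counts in PPAT-CM than in control-CM (1.66 to 2.36). Over all kept genes 12.0% were at least 1.5-fold higher and 8.71% lower.

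The kept carriers of steroid conjugates differed little. Of 11 genes 3 were kept and none was past 1.5-fold in any of the 3 comparisons. Over all kept genes 12.0% were higher by as much and 8.71% lower in PPAT-CM against control-CM. The shares were 3.15% and 3.49% in PVAT-CM against control-CM, and 8.56% and 6.07% in PPAT-CM against PVAT-CM. Most genes were thus inside 1.5-fold as well. ABCC4, which exports conjugated steroids among other anions, had 4231 counts in PPAT-CM, 2536 in PVAT-CM and 2791 in control-CM and was 1.25-fold higher in PPAT-CM than in control-CM (1.19 to 1.31). ABCC1, a related pump, had 1679 counts in PPAT-CM, 984 in PVAT-CM and 1239 in control-CM and stood 1.12-fold higher (1.04 to 1.20).

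Among factors known to act on UGT2B genes NFE2L2 was higher in PPAT-CM and FOXA1 differed little. FOXA1, a forkhead factor that opens chromatin, had 10763 counts in PPAT-CM, 9566 in PVAT-CM and 9676 in control-CM and stood 1.09-fold lower (1.06 to 1.12). NFE2L2, which drives the antioxidant response, had 912 counts in PPAT-CM, 505 in PVAT-CM and 372 in control-CM. It stood 2.02-fold higher in PPAT-CM (1.79 to 2.29) and 1.44-fold higher in PVAT-CM (1.26 to 1.66) than in control-CM. Of 17 such factors 10 were kept, and the list's median log2 ratio in PPAT-CM against control-CM was 0.01. At 2-fold 1 was higher and 1 lower there, beside 3.93% of all kept genes higher and 2.74% lower. What part they have in the UGT2B and UGDH differences was not tested.

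Genes that androgen raises were split in PPAT-CM against control-CM. Past 2-fold were 6 of 9 kept genes, 3 higher and 3 lower, beside 3.93% of all kept genes higher and 2.74% lower, with a median log2 ratio of -0.16. FKBP5, a chaperone of steroid receptors, had 650 counts in PPAT-CM, 154 in PVAT-CM and 155 in control-CM and was 3.46-fold higher in PPAT-CM than in control-CM (2.90 to 4.15), against the lower KLK3 given above. Of 5 genes that androgen lowers 4 were kept, with a median log2 ratio of -0.56. Of these 2 were at least 2-fold lower and 0 were higher by as much, beside the same shares of all kept genes. OPRK1, an opioid receptor, had 1253 counts in PPAT-CM, 2038 in PVAT-CM and 2085 in control-CM and stood 2.02-fold lower (1.88 to 2.17). FOLH1 stood 1.08-fold lower, while CAMK2N1 lay on the other side, 1.46-fold higher in PPAT-CM than in control-CM. In PVAT-CM against control-CM no gene of either list was past 1.5-fold, beside 3.15% of all kept genes higher and 3.49% lower.

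**Figure D5:**
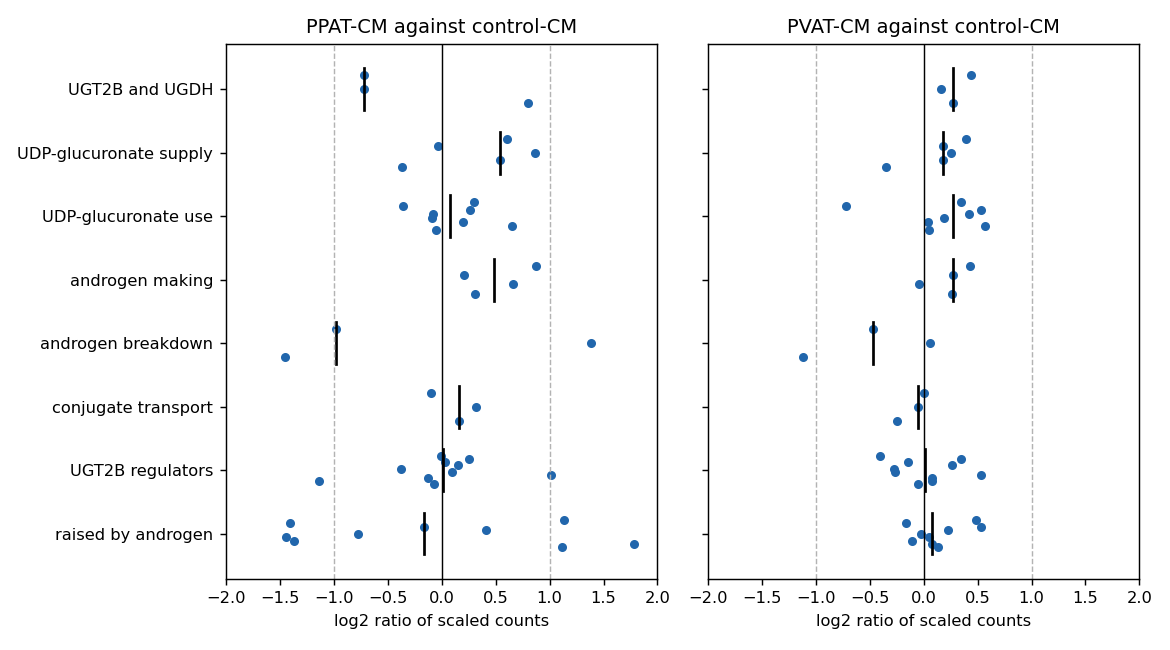
Log2 ratios of scaled counts of the kept genes of 8 lists in PPAT-CM against control-CM (left) and PVAT-CM against control-CM (right); points are genes, black bars list medians and dashed lines 2-fold. UGT2B15 and UGT2B17 lie near -0.72 on the left, opposite the supply genes with a median of 0.54.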

How the data were processed

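The table deposited by the authors holds raw counts per Ensembl gene for 3 LNCaP libraries. Per the submitters' processing notes, FastQC, Trimmomatic, HISAT2, featureCounts and edgeR were used with GRCh38. Neither versions, the strand setting nor the treatment of reads that match several places was given in the sources used here. Of 58884 rows, 58611 matched GENCODE release 29.

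Counts were scaled with TMM factors (edgeR 4.0.16, R 4.3.3), which were 1.08 in PPAT-CM, 1.01 in PVAT-CM and 0.917 in control-CM. Genes with a mean count of at least 50 were kept, 12256 in all. Log2 ratios used a pseudocount of 0.5. Folds carry exact conditional binomial (Clopper-Pearson) 95% intervals and levels exact Poisson ones. Both cover counting error only, because each medium had 1 library. PCR copies were not told apart by molecular identifiers, so the intervals can be too narrow even for counting error. Ratios of 2 genes within a library carry conditional odds ratio intervals (scipy 1.17.1). With 1 library per medium no p-value was computed. A gene was called past 2-fold. The log2 ratios and binomial intervals were tested on simulated counts for PPAT-CM against control-CM. TMM scaling and shared reads were not part of that test.

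The members and the gene lists were chosen with earlier results of these data known. Named were all members, their neighbours with any count, the 2 genes of each list with the largest ratio in PPAT-CM against control-CM, 6 genes fixed by name, and the 3 kept genes with the nearest pair of log2 ratios to each kept member; KLK2, KRT14 and a few others were named afterwards. Alternatives were DESeq2 1.42.0 size factors, total counts, upper quartile factors, TMM without mitochondrial genes, a pseudocount of 5, other count minimums and folds, and pseudogene rows added to sums. The planned protein identity was not computed, and identity of coding sequences was used in its place. Some genes of the lists, and a motif, are not reported here.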

Additional observations from a re-analysis of the deposited data

How the results depend on the processing

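All 3 comparisons rest on 1 library per medium, so no library could be left out. No paired analysis was possible because each medium had 1 library. The log2 ratio of the summed UGT2B counts in PPAT-CM against control-CM was -0.49 with total counts and -0.80 with upper quartile factors, in place of -0.73. With total counts it was 0.52 in PVAT-CM against control-CM and -1.01 in PPAT-CM against PVAT-CM. Total counts also moved the median of all kept genes in these comparisons, to 0.27, 0.15 and 0.13 for PPAT-CM against control-CM, PVAT-CM against control-CM and PPAT-CM against PVAT-CM. In PPAT-CM against control-CM the number of members past 2-fold was 0, and it was 1 with total counts (UGDH), 1 at a count minimum of 10 (UGT2B11), 3 with no filter and 3 at 1.5-fold. In PVAT-CM against control-CM it was 0, and 3 with no filter. In PPAT-CM against PVAT-CM it was 1, and it was 2 at a count minimum of 10, 3 with no filter, 2 at 1.5-fold and 0 at 3-fold. The members past 2-fold without a filter included UGT2B7 in all 3 comparisons, which had at most 4 counts in a library. Of 95 single-member log2 ratios under another scaling or pseudocount, 94 kept their sign and 89 stayed inside the counting interval. The exception in sign was UGT2B11 in PVAT-CM against control-CM, with total counts.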

Other observations

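A few further androgen-converting enzymes had too few counts for the filter and were picked out after their values were seen. HSD17B2, which oxidises testosterone to a weaker androgen, had 20 counts in PPAT-CM, 5 in PVAT-CM and 0 in control-CM. The lower end of its counting interval in PPAT-CM against control-CM was 4.07-fold. AKR1C3, which runs the opposite reaction, had 36 counts in PPAT-CM, 4 in PVAT-CM and 11 in control-CM, and was 2.70-fold higher in PPAT-CM than in control-CM (1.34 to 5.88). Reads of AKR1C3 can be shared with close relatives of the same family. HSD17B11, a lipid droplet enzyme that oxidises androgens, had 57 counts in PPAT-CM, 20 in PVAT-CM and 21 in control-CM, and was 2.24-fold higher in PPAT-CM than in control-CM (1.34 to 3.89). Others of the lists below the filter had their lowest count in PPAT-CM. HSD17B6 had 8 counts in PPAT-CM, 11 in PVAT-CM and 12 in control-CM, RDH16 had 22 in PPAT-CM, 23 in PVAT-CM and 29 in control-CM, and HSD3B1 had 0 in PPAT-CM, 2 in PVAT-CM and 5 in control-CM. For HSD17B6 and RDH16 the intervals in PPAT-CM against control-CM included 1.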
